A study of Homo sapiens with 8 samples.

Results

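The 9 genes followed here are 8 of the poly(ADP-ribose) polymerase (PARP) family and DTX3L, the ubiquitin ligase that partners PARP9. They were found by matching the Ensembl gene IDs of the deposited table to symbols in GENCODE release 29, which gave 9 of 40295 gene IDs, and all 9 passed the filter on low counts. Of these, 5 are interferon-linked (PARP9, DTX3L, PARP14, PARP10 and PARP12), 2 serve DNA repair (PARP1 and PARP2), and the other 2, PARP4 and PARP8, belong to neither class. The cells were HCT116, a human colorectal cancer line, either wild-type or with E33Q knocked into MED12, part of Mediator's kinase module, by CRISPR-Cas9. Each line was sampled without treatment (0 h) or after 24 h with interferon-gamma (IFN-γ) at 5 ng/ml, with 2 biological replicates in each of 4 groups. The measurement was RNA sequencing of total RNA depleted of ribosomal RNA. The comparisons are treated with untreated cells of either line, the lines with each other at 0 h and at 24 h, and one response with the other. All untreated libraries are labelled 0 h and all treated ones 24 h, so the time in culture and IFN-γ cannot be told apart. Only 1 knock-in line is named, so the E33Q change and differences between clones cannot be told apart either.

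PARP enzymes take ADP-ribose from NAD and attach it to proteins or nucleic acids. PARP1 and PARP2 bind broken DNA and build ADP-ribose chains that recruit repair factors, while most other members add single units. PARP9, PARP14, PARP10 and PARP12 are known as interferon-stimulated genes, and PARP9 and PARP14 carry macrodomains that bind ADP-ribose. DTX3L forms a complex with PARP9 that ubiquitinates histones and viral or host proteins. IFN-γ signals through the receptor kinases JAK1 and JAK2 to promoter elements called GAS, and through IRF1, which binds interferon-stimulated response elements (ISRE).

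The library totals lay between 20872904 and 28006202 estimated counts, and 16519 genes were tested. ERCC spike-in RNAs, added standards, made up 0.11 to 0.14% of the counts in untreated and 0.228 to 0.271% in treated libraries. The mean GC content of the counted transcripts was 45.2 to 46.6% in untreated and 47.9 to 48.1% in treated libraries. Levels in CPM are counts divided by each library's total, scaled by edgeR's trimmed mean (TMM) factors. Of the epithelial markers, KRT8 (1440 to 3612 CPM), KRT18, KRT19 and EPCAM were detected in every library, CDX1 was at 0 in all 8 and VIL1 was at 0.16 CPM or less. RNA of plasma cell genes stood out in 4 libraries. The summed level of 13 such genes, JCHAIN, IGKC and IGHA1 foremost, was 349.3 and 394.3 CPM in untreated wild-type, 345.0 CPM in untreated knock-in library 2 and 272.9 CPM in treated knock-in library 2. It was 2.17 to 2.37 CPM in the other 4, among them both treated wild-type libraries. Not all 13 genes followed this split, since IGHG1, IGHM and CD79A stayed at or under 0.23 CPM in every library. FCRL5, at 0.15 to 1.40 CPM, overlapped between the high and the low libraries. The summed level of 10 other leukocyte genes was 21.97 to 29.01 CPM in the 4 libraries high in plasma cell RNA and 3.23 to 7.35 CPM in the rest. In the high libraries it came mainly from LCP1 (9.01 to 12.43 CPM), CD48 (4.35 to 6.96) and ITGA4 (4.32 to 6.36). CD3E, CD2, MS4A1, LYZ and CD14 stayed at or under 0.74 CPM in every library. CD68 was highest, at 2.49 CPM, in treated wild-type library 2, which was low in plasma cell RNA. Which cells this RNA came from was not tested. The fibroblast and endothelial sums stayed at or under 7.58 CPM.

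Short stretches of promoter are shown first because 4 of the interferon-linked genes share a motif there. RefSeq windows on GRCh38.p14 that run from 250 bases before to 50 bases after a gene's start were searched on both strands for the ISRE core (GAAA, any 2 bases, GAAA) and for the GAS motif (TTC, any 3 bases, GAA). PARP9, DTX3L, PARP14, PARP12, PARP1, PARP2 and PARP8 had windows. PARP9 and DTX3L, which are read in opposite directions, hold the same ISRE core. It lies 41 to 32 bases before a start of PARP9, and over the start of DTX3L, from 6 bases before it. PARP9 had 2 windows, and 1 of them held the core. These starts are RefSeq's, while the gene spans given further on are GENCODE's and begin further upstream, so each of the motifs printed here lies inside those spans. The core is in capitals in these 30-base stretches of the + strand, and in the last line the capitals mark the GAS motif of PARP14, which lies just beside its ISRE core.
PARP9 and DTX3L, chr3:122564322-122564351: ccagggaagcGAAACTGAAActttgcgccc
PARP14, chr3:122680800-122680829: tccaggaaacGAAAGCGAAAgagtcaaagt
PARP12, chr7:140062942-140062971: ggcgggaaacGAAACCGAAAgcggccccgg
PARP14, GAS, chr3:122680789-122680818: cctgggagttTTCCAGGAAacgaaagcgaa

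The ISRE core of PARP14 lies 29 to 20 bases before its start and that of PARP12, a gene on the - strand, 10 to 1 bases before, both counted from the RefSeq start. Among all 35116 windows, 3.57% held the ISRE core and 7.66% the GAS motif. Counted by gene, 4.38% of 27305 genes held the ISRE core and 9.38% the GAS motif in any window. No ISRE core was found in the windows of PARP1, PARP2 or PARP8, and PARP2 held a GAS motif. Other PARP family genes with windows held no ISRE core either. These were PARP3 and ZC3HAV1, which rose with IFN-γ, and PARP6, PARP11, PARP15, PARP16, TIPARP and TNKS2. Of them, ZC3HAV1 and PARP15 held a GAS motif. MVP and TEP1, vault protein genes that also rose, each held the ISRE core in 1 window. A match describes the letters only, and no binding was measured here.

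All 5 interferon-linked genes rose with IFN-γ in both lines, by 6.22-fold (PARP12) to 31.9-fold (PARP10) in wild-type and by 6.51-fold (PARP14) to 40.0-fold (PARP10) in knock-in cells. PARP1 rose by 1.64-fold and 1.67-fold. PARP4 fell, and PARP2 and PARP8 did not pass the test in either line. In each response 6 of the 9 genes were called higher, 1 lower and 2 not at all, at an adjusted p under 0.05 in edgeR's quasi-likelihood test. Much of the transcriptome differed between treated and untreated libraries, with 37.9% of tested genes called in wild-type (17.1% higher, 20.8% lower) and 52.1% in knock-in cells (26.4% higher, 25.8% lower). These splits depended on the scaling, since spike-in scaling called 233 genes higher and 6745 lower in wild-type and 616 higher and 5476 lower in knock-in cells. The median log2 fold change was 3.73 over the interferon-linked genes and 0.08 over all tested genes in wild-type cells, and 3.53 and 0.12 in knock-in cells.

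**Figure D1:**
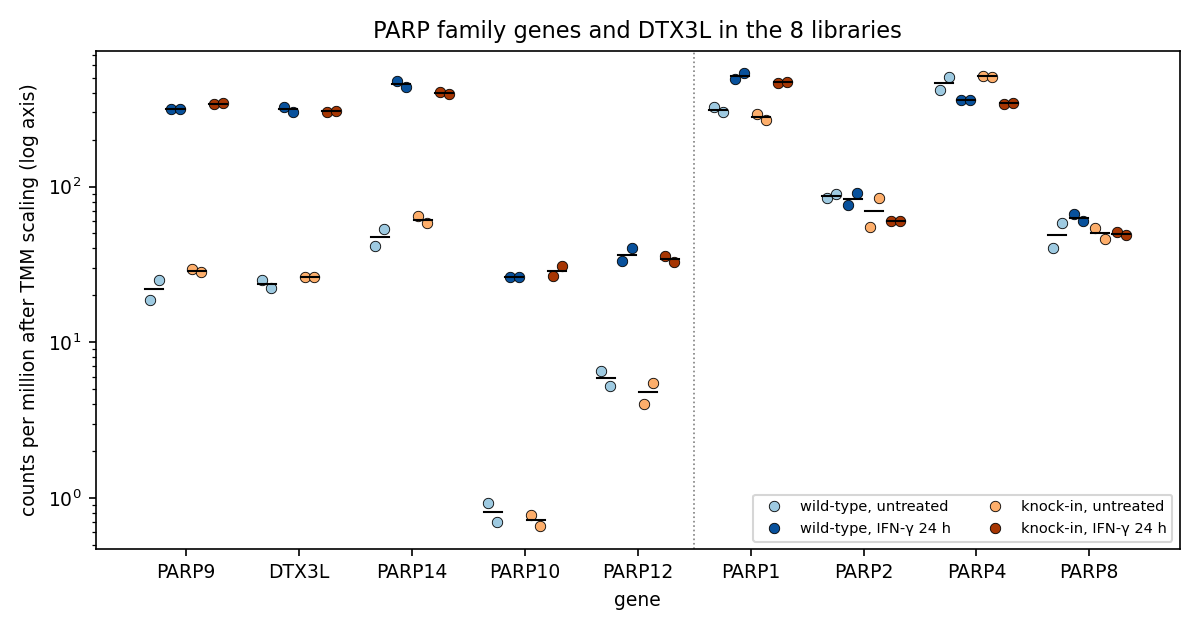
Level of each gene in the 8 libraries, in CPM after TMM scaling on a log axis, with 1 point per library and a bar at each group's mean. Left of the dotted line, every treated library lies above every untreated one for the 5 interferon-linked genes; right of it, PARP1 and PARP4 separate by treatment and PARP2 and PARP8 overlap.

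PARP9, an ADP-ribose reader (ENSG00000138496, chromosome 3, 122527924 to 122564577, GRCh38), stood at 18.8 and 25.1 CPM in untreated and 316.0 and 314.6 CPM in treated wild-type cells. In knock-in cells it went from 29.4 and 28.1 to 339.3 and 344.3 CPM. The treated libraries were far above the untreated ones in both lines, and the log2 fold change was 3.85 ± 0.16 (SE, n = 2 per group, edgeR adjusted p = 1.84e-06) in wild-type and 3.57 ± 0.16 (2.43e-06) in knock-in cells.

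DTX3L, the E3 ligase (chromosome 3, 122564238 to 122575203), was at 25.1 and 22.2 CPM without and 323.4 and 303.0 CPM with IFN-γ in wild-type cells. The knock-in values were 26.3 CPM in both untreated libraries and 301.8 and 307.2 CPM in treated ones. Treated and untreated libraries did not overlap in either line. Its log2 fold change was 3.73 ± 0.13 (edgeR adjusted p = 9.82e-07) in wild-type and 3.53 ± 0.13 (1.18e-06) in knock-in cells, close in size to that of PARP9. The annotated PARP9 and DTX3L transcripts overlap head to head over 340 bases, and whether the counting used strand is not given in the sources used here.

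PARP14, a macrodomain mono-ADP-ribosyltransferase (chromosome 3, 122680618 to 122730840), was at 41.7 and 53.0 CPM without and 479.2 and 438.1 CPM with IFN-γ in wild-type cells. In knock-in cells it went from 64.6 and 58.2 to 406.0 and 392.5 CPM. Both untreated knock-in libraries were above, and both treated ones below, their wild-type counterparts. Its rise on the log2 scale was 3.28 ± 0.16 (edgeR adjusted p = 3.77e-06) in wild-type and 2.70 ± 0.15 (8.13e-06) in knock-in cells.

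PARP10, a mono-ADP-ribosyltransferase (chromosome 8, 143977153 to 144012772), was nearly silent without IFN-γ. It had 0.92 and 0.70 CPM in untreated and 26.1 and 26.2 CPM in treated wild-type cells, and 0.78 and 0.66 against 26.6 and 30.8 CPM in knock-in cells. The untreated values rest on 14 to 20 counts per library. Its log2 fold change was the highest of the 9 genes, at 5.00 ± 0.23 (edgeR adjusted p = 2.93e-06) in wild-type and 5.32 ± 0.23 (2.29e-06) in knock-in cells.

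PARP12, a zinc-finger mono-ADP-ribosyltransferase (chromosome 7, 140023744 to 140063721), was at 6.53 and 5.21 CPM without and 33.0 and 40.1 CPM with IFN-γ in wild-type cells. It went from 4.01 and 5.50 to 35.6 and 32.95 CPM in knock-in cells. Again no treated value fell into the untreated range. The log2 fold change was 2.64 ± 0.21 (edgeR adjusted p = 9.71e-05) in wild-type and 2.84 ± 0.22 (6.36e-05) in knock-in cells.

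Levels of plasma cell RNA moved with the wild-type response, being high in both untreated and low in both treated libraries, and their part in the wild-type values was not tested. Between the knock-in libraries numbered 1, with 2.17 CPM of plasma cell genes untreated and 2.34 treated, the log2 fold changes were 3.53 for PARP9, 3.52 for DTX3L, 2.65 for PARP14, 5.08 for PARP10 and 3.15 for PARP12. In these bulk samples, fewer cells of a type and less RNA per cell cannot be told apart.

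PARP1, the main sensor of DNA strand breaks (chromosome 1, 226360691 to 226408079), was already abundant without IFN-γ. It was at 325.8 and 299.5 CPM in untreated and 493.3 and 533.8 CPM in treated wild-type cells, and at 294.2 and 267.8 against 465.6 and 471.2 CPM in knock-in cells. Treated libraries were higher in both lines, and the log2 fold change was 0.72 ± 0.12 (edgeR adjusted p = 0.00187) in wild-type and 0.74 ± 0.12 (0.000828) in knock-in cells. This call depended on the scaling. With libraries scaled to the spike-ins, which moved the median of all tested genes to −0.72 and −0.41, PARP1 was at −0.10 (edgeR adjusted p = 0.685) and 0.21 (0.378). It was at 0.49 and 0.45, both called, once each library's trend with GC content and transcript length was removed. Without the knock-in libraries numbered 2 it was at 0.66 in knock-in cells (edgeR adjusted p = 0.0825).

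PARP2, which shares the strand-break role of PARP1 (chromosome 14, 20343582 to 20357905), was at 84.4 and 89.0 CPM in untreated and 75.7 and 91.0 CPM in treated wild-type cells. Untreated knock-in libraries differed from each other, at 54.6 and 83.9 CPM, and treated ones were at 60.3 and 60.0 CPM. The groups overlapped in both lines, with a log2 fold change of −0.06 ± 0.19 (edgeR adjusted p = 0.844) in wild-type and −0.21 ± 0.19 (0.418) in knock-in cells. Spike-in scaling called PARP2 lower, at −0.87 (edgeR adjusted p = 0.00953) and −0.73 (0.0239), and removal of the GC and length trend gave 0.47 and 0.45, not called. Without untreated knock-in library 1 it was called lower in knock-in cells (−0.48, edgeR adjusted p = 0.0468).

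PARP4, the catalytic PARP of the vault particle (chromosome 13, 24420926 to 24512810), went the other way. It was at 418.7 and 507.4 CPM in untreated and 360.1 and 359.9 CPM in treated wild-type cells, and at 514.0 and 509.0 against 341.1 and 345.4 CPM in knock-in cells. All treated libraries were lower than all untreated ones. The log2 fold change was −0.36 ± 0.12 (edgeR adjusted p = 0.0454) in wild-type and −0.58 ± 0.12 (0.00382) in knock-in cells. The wild-type call was lost in 11 of 18 alternatives, among them without untreated library 2 (−0.22, edgeR adjusted p = 0.0807), without either treated wild-type library (−0.37, 0.178; −0.36, 0.184), and without each knock-in library, from 0.0616 to 0.103 at −0.36. The knock-in call was lost without both libraries numbered 2 (−0.59, edgeR adjusted p = 0.123). The other 2 vault proteins rose. MVP, the major vault protein, went from 49.1 and 30.1 to 131.8 and 127.0 CPM in wild-type (log2 fold change 1.71, edgeR adjusted p = 0.000636) and rose by 2.0 in knock-in cells (0.000192). TEP1, the telomerase-associated vault protein, rose by 0.83 (edgeR adjusted p = 0.00549) and 1.00 (0.00127). Under spike-in scaling TEP1 was not called in either line and MVP only in knock-in cells.

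PARP8, a mono-ADP-ribosyltransferase (chromosome 5, 50665899 to 50846522), was at 40.3 and 57.9 CPM in untreated and 66.3 and 59.8 CPM in treated wild-type cells. It was at 54.2 and 46.2 against 50.8 and 48.9 CPM in knock-in cells. The treated wild-type libraries were both higher than the untreated ones, and the knock-in groups overlapped. The log2 fold change was 0.36 ± 0.18 (edgeR adjusted p = 0.146) in wild-type and −0.01 ± 0.18 (0.968) in knock-in cells. With the GC and length trend removed PARP8 was called higher in both, at 1.00 (edgeR adjusted p = 0.000276) and 0.97 (0.000245), and it was called in wild-type cells without untreated library 2 (0.65, 0.0139). Its transcript GC content, 35.6%, was the lowest of the 9, and that of PARP10, 66.9%, the highest.

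**Figure D2:**
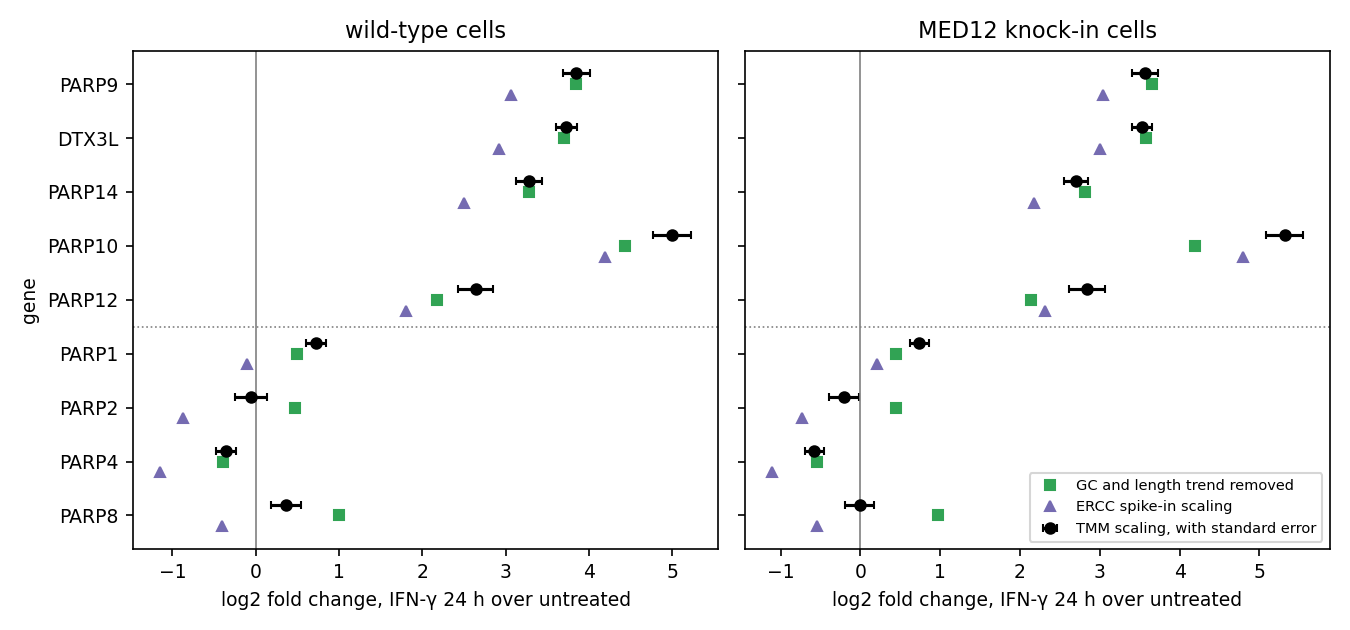
Log2 fold change of each gene with IFN-γ in wild-type (left) and knock-in cells (right) under 3 scalings; error bars are standard errors of the TMM fit. The 5 interferon-linked genes stay above 1.8 under each scaling, while PARP1, PARP2 and PARP8 move across or close to 0.

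The interferon-linked genes kept their direction and call in all 185 values computed under the alternatives, with log2 fold changes from 1.81 to 5.43. Across the libraries, log2 CPM of the 5 had Pearson correlations of 0.971 to 0.998 with each other over 8 libraries, which mainly restates treated against untreated. With PARP1 they had 0.949 to 0.977 and with PARP4 −0.955 to −0.885.

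Levels were compared between genes after division by the merged exon length (CPM per kb). Without IFN-γ, PARP4 (76.2 CPM per kb in wild-type, 84.1 in knock-in), PARP1 (43.6, 39.2) and PARP2 (21.2, 16.9) led in that order, and the interferon-linked genes made up 7.65 ± 0.04% (SD, n = 2) of the summed level of the 9 in wild-type and 9.04 ± 0.29% in knock-in cells. PARP8, PARP14 and DTX3L overlapped in wild-type cells, at 4.88, 4.51 and 4.03 CPM per kb, and PARP9, PARP12 and PARP10 followed at 2.46, 0.93 and 0.13. With IFN-γ the interferon-linked share was 47.5 ± 1.8% and 49.5 ± 0.09%. PARP1 (71.6, 65.3 CPM per kb) and PARP4 (59.2, 56.5) still led, but DTX3L (53.4, 51.9), PARP14 (43.7, 38.0) and PARP9 (35.3, 38.2) now stood above PARP2 (20.4, 14.7). PARP14 and PARP9 overlapped in treated knock-in cells, and PARP8 and PARP12 in treated wild-type cells. PARP10 remained the lowest, at 4.33 and 4.76 CPM per kb, and in knock-in cells it overlapped with PARP8. With the longest transcript as length, parts of this order turned. PARP10 (8.205 CPM per kb) was then above PARP8 (6.94) in treated knock-in cells, PARP14 (54.4) overlapped with DTX3L (53.4) in treated wild-type cells, and PARP4 overlapped with PARP1 in untreated wild-type cells.

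No difference between the lines was called for the 9 genes, which with 2 libraries per group does not show that their levels are alike. None was called without IFN-γ, against 8.43% of tested genes (4.26% higher and 4.17% lower in knock-in cells), and none with IFN-γ, against 2.91% (1.63% higher, 1.28% lower). Such shares of 9 genes come to less than 1 gene. At an unadjusted p under 0.05 in edgeR there were 2 of 9 without and 1 of 9 with IFN-γ. Over all 16519 tested genes there were 4458 without and 2562 with IFN-γ. DESeq2 and limma-voom also called 0 of the 9. Without IFN-γ the 2 were PARP9 (knock-in over wild-type log2 fold change 0.39 ± 0.15, edgeR adjusted p = 0.138) and PARP14 (0.37 ± 0.15, 0.137). Leaving out untreated wild-type library 2, with 1 library then in that group, put PARP9 at 0.61, PARP14 at 0.56 and PARP4 at 0.29. With IFN-γ the 1 gene was PARP2, lower in knock-in cells by −0.47 ± 0.19 (edgeR adjusted p = 0.286). Fitted on the treated groups alone, PARP2 (−0.45, edgeR adjusted p = 0.0192) and PARP8 (−0.32, 0.0374) were called lower. That fit called 1216 genes higher and 1211 lower of 15930 tested.

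The IFN-γ responses of the lines were compared by an interaction term, knock-in minus wild-type. None of the 9 genes was called, and edgeR called 0% of tested genes, with 1119 genes at an unadjusted p under 0.05, 4 called by DESeq2 and 0 by limma-voom. PARP14 was the 1 gene of the 9 at an unadjusted p under 0.05 (−0.57 ± 0.20, edgeR adjusted p = 0.688). The others ranged from −0.37 ± 0.26 (PARP8) to 0.33 ± 0.33 (PARP10). For PARP8, PARP2, PARP12 and PARP10 the standard errors, from 0.26 to 0.33, leave room for differences of the size seen for PARP14. PARP9 (−0.27 ± 0.21) and PARP4 (−0.21 ± 0.18) leave room for one in the direction of PARP14, and DTX3L (−0.19 ± 0.17) is a borderline case. The value of PARP1, 0.02 ± 0.17, leaves less room for a difference of that size.

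Among the 9 other PARP family genes tested, 2 rose and 1 fell in wild-type cells, and 3 rose and 2 fell in knock-in cells. Under spike-in scaling 2 rose and 3 fell in both lines. With the GC and length trend removed 3 rose and 0 fell in wild-type and 3 rose and 1 fell in knock-in cells by edgeR. For this and the later gene lists, the shares of all 16519 tested genes were 17.1% higher and 20.8% lower in wild-type cells. In knock-in cells they were 26.4% and 25.8%. Spike-in scaling called 233 genes higher and 6745 lower in wild-type, and 616 and 5476 in knock-in cells. Removal of the trend gave 1933 and 2081, and 2509 and 2562. PARP3, which acts at DNA breaks, rose from 13.7 and 8.07 to 68.3 and 58.3 CPM in wild-type and from 10.9 and 12.7 to 63.4 and 65.7 CPM in knock-in cells. The groups lay far apart, with log2 fold changes of 2.54 ± 0.24 (edgeR adjusted p = 0.000221) and 2.45 ± 0.23 (0.000165). The log2 fold changes of PARP12 were 2.64 and 2.84. ZC3HAV1, the zinc-finger antiviral protein (PARP13), rose by 1.34 ± 0.13 (edgeR adjusted p = 0.000225) and 1.45 ± 0.13 (0.000111). Both kept their calls under all alternatives.

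TIPARP, the dioxin-inducible PARP7, fell in knock-in cells from 121.9 and 125.1 to 48.5 and 43.0 CPM (−1.43 ± 0.16, edgeR adjusted p = 0.00021). In wild-type cells it went from 60.1 and 81.5 to 51.2 and 52.0 CPM (−0.46 ± 0.16, edgeR adjusted p = 0.0493), a call lost without any library but untreated wild-type library 1 (−0.46 to −0.22, 0.0685 to 0.2) and with the trend removed (−0.15, 0.35). The untreated level was higher in knock-in than in wild-type cells (0.80 ± 0.16, edgeR adjusted p = 0.0186), which was lost under spike-in scaling (0.50, 0.0938) and without either untreated knock-in library (0.83, 0.0662; 0.79, 0.0989). PARP6 rose in knock-in cells (0.60 ± 0.16, edgeR adjusted p = 0.0117), but was at 0.07 under spike-in scaling. It also lost that call without untreated knock-in library 1 (0.48, edgeR adjusted p = 0.0897) and without either treated one (0.58, 0.0724; 0.61, 0.0586).

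Tankyrase 2 (TNKS2), named after its values were seen, was higher in knock-in cells, at 157.9 and 142.7 against 77.0 and 82.5 CPM without IFN-γ. With it the values were 119.4 and 116.8 against 72.5 and 78.1 CPM. The log2 differences were 0.91 ± 0.12 (edgeR adjusted p = 0.0033) and 0.65 ± 0.12 (0.0245). Under spike-in scaling they were 0.59 (edgeR adjusted p = 0.0672) and 0.60 (0.158), and the treated difference was not called without any 1 of the 4 treated libraries (0.60 to 0.70, 0.175 to 0.233). In knock-in cells TNKS2 was called lower with IFN-γ (−0.35, edgeR adjusted p = 0.0377), a call lost without any library but the untreated wild-type ones. Its paralogue TNKS, likewise named afterwards, was not called in either response (−0.08, edgeR adjusted p = 0.739; −0.23, 0.253). Spike-in scaling called TNKS lower in both lines (−0.87, edgeR adjusted p = 0.00972; −0.77, 0.0205).

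**Figure D3:**
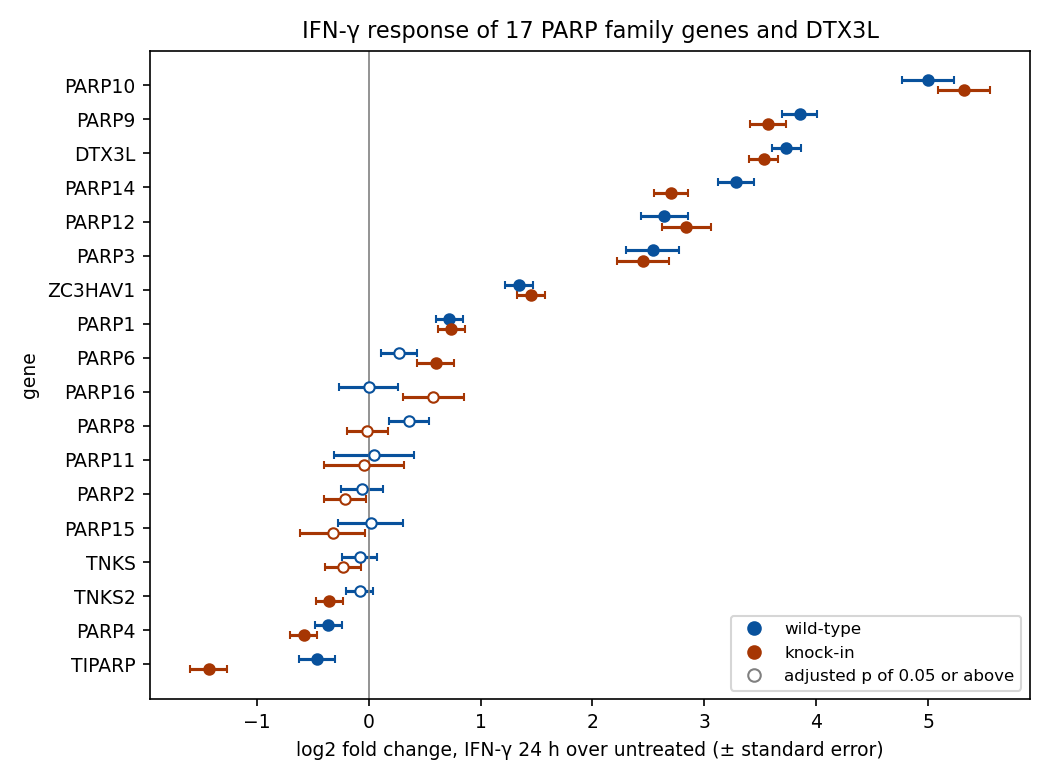
Log2 fold change with IFN-γ of the 9 genes and the 9 other PARP family genes, ± standard error, filled where the adjusted p is under 0.05. PARP3 and ZC3HAV1 lie next to the interferon-linked genes, from 1.34 to 2.54, and TIPARP in knock-in cells is lowest at −1.43.

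Of 3 deltex genes tested, relatives of DTX3L, 1 rose in wild-type and 2 in knock-in cells. DTX4 was at 0.65 (edgeR adjusted p = 0.0357) and 0.99 (0.00331), and DTX2 at 0.58 (0.176) and 0.95 (0.0287). None was called under spike-in scaling or with the GC and length trend removed. In wild-type cells DTX4 was also not called without untreated library 2 (0.50, edgeR adjusted p = 0.148) or without either treated library (0.65, 0.126; 0.66, 0.116), nor without either treated knock-in library (0.65, 0.0617 and 0.0639). DTX2 in knock-in cells was at 0.59 (edgeR adjusted p = 0.266) without treated library 2, and not called without either untreated one (0.93, 0.105; 0.97, 0.101).

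Of 16 genes that erase or read ADP-ribose, 2 rose and 4 fell in wild-type cells, and 2 rose and 7 fell in knock-in cells (median −0.25 and −0.04). Under spike-in scaling 0 rose and 8 fell in both lines by edgeR (median −1.07 and −0.57). With the GC and length trend removed 2 rose and 2 fell in both (−0.15 and −0.24). Of all tested genes with TMM scaling, 37.9% were called in wild-type and 52.1% in knock-in cells. HPF1, the cofactor that directs PARP1 and PARP2 to serine, fell from 31.7 and 41.2 to 15.6 and 19.6 CPM in wild-type cells (−1.05, edgeR adjusted p = 0.00215) and by 1.5 on the log2 scale in knock-in cells (0.000251). With the GC and length trend removed it was at −0.07 (edgeR adjusted p = 0.738) and −0.36 (0.0536). NUDT5, which hydrolyses ADP-ribose, fell in both (−1.12, edgeR adjusted p = 0.000923; −1.14, 0.000402), also with the trend removed (−0.69 and −0.55). RNF146, a ligase that reads ADP-ribose chains, fell by −0.73 (edgeR adjusted p = 0.0182) and −1.14 (0.00125). In wild-type cells its call was lost without untreated library 2 (−0.44, edgeR adjusted p = 0.0932), either treated one (−0.64, 0.121; −0.82, 0.0572) or the trend (−0.26, 0.228). APLF, a chain-binding repair factor, was called in knock-in cells (−1.30, edgeR adjusted p = 0.0284) and was at −0.56 in wild-type cells (0.33), where spike-in scaling called it too (−1.30, 0.0367). The knock-in value was −0.24 with the trend removed (edgeR adjusted p = 0.691), and its call was also lost without untreated library 1 (−0.92, edgeR adjusted p = 0.197) or either treated one (−1.32, 0.107; −1.29, 0.111). PARG, the main chain eraser, named after its values were seen, fell by −0.58 (edgeR adjusted p = 0.0112) and −0.68 (0.00313). In wild-type cells it was not called without either treated library (−0.60, edgeR adjusted p = 0.0721; −0.56, 0.0802), nor in knock-in cells with the trend removed (−0.24, 0.0716).

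Among 17 genes of single-strand break and base excision repair, where PARP1 and PARP2 act, 2 rose and 5 fell in wild-type and 6 rose and 5 fell in knock-in cells (median 0.19 and 0.36). Under spike-in scaling 0 rose and 9 fell in wild-type and 0 rose and 8 fell in knock-in cells by edgeR (median −0.62 and −0.17). With the GC and length trend removed the counts were 2 and 5 in wild-type and 1 and 5 in knock-in cells (median −0.08 and −0.17). Over all 16519 tested genes with TMM scaling, 37.9% were called in wild-type and 52.1% in knock-in cells. Spike-in scaling called 6745 of them lower in wild-type and 5476 in knock-in cells. LIG3, the ligase that follows PARP1, rose by 0.79 (edgeR adjusted p = 0.0021) and 0.85 (0.00077), and was not called under spike-in scaling (−0.0013 and 0.32). XRCC1, its scaffold, named after its values were seen, was at 0.70 (edgeR adjusted p = 0.0142) and 0.69 (0.00937). It was not called under spike-in scaling or with the trend removed, and in wild-type cells not without untreated library 2 (0.50, 0.0546) or either treated one (0.69, 0.0721; 0.70, 0.064). In knock-in cells it was not called without untreated library 1 (0.64, edgeR adjusted p = 0.0548) or treated library 1 (0.66, 0.065). PCNA, the replication clamp, fell by −1.36 (edgeR adjusted p = 0.000881) and −1.46 (0.000311). POLB, the gap-filling polymerase, fell by −1.37 (edgeR adjusted p = 0.00093) and −1.28 (0.000587), and the glycosylase NEIL3 by −1.09 (0.00187) and −1.63 (0.000197). With the trend removed these falls were smaller, at −0.65 and −0.67 for PCNA, −0.38 and −0.75 for NEIL3, and −0.51 and −0.30 for POLB, the last not called (edgeR adjusted p = 0.08).

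Of 22 genes of double-strand break repair, 3 rose and 11 fell in wild-type cells, and 2 rose and 14 fell in knock-in cells, with medians of −0.46 and −0.59. Under spike-in scaling 0 rose and 19 fell in wild-type and 0 rose and 17 fell in knock-in cells by edgeR (median −1.25 and −1.12). With the GC and length trend removed 3 rose and 7 fell and 3 rose and 11 fell (−0.23 and −0.28). Among all tested genes with TMM scaling, 20.8% were called lower in wild-type and 25.8% in knock-in cells. XRCC4 and LIG4, partners in end joining, fell by −1.34 (edgeR adjusted p = 0.00109) and −1.10 (0.00129) in wild-type and by −1.82 (0.000188) and −1.48 (0.000211) in knock-in cells. With the trend removed, neither was called in wild-type cells (−0.23 and −0.28), and they were at −0.49 and −0.35 in knock-in cells. RBBP8, which starts end resection, fell by −1.24 (edgeR adjusted p = 0.000686) and −1.21 (0.000351), and BARD1, the partner of BRCA1, by −1.0 (0.00354) and −1.35 (0.000447). With the trend removed RBBP8 was at −0.58 and −0.34 and BARD1 at −0.42 and −0.51, all called. Some of these genes also differed between the lines, and the following were named after their values were seen. XRCC4 was higher in knock-in cells, at 275.8 and 250.6 against 52.9 and 80.9 CPM without IFN-γ (1.98, edgeR adjusted p = 0.000713) and by 1.49 with it (0.00381). RBBP8 was lower, by −1.05 (edgeR adjusted p = 0.00555) and −1.02 (0.00934), and so was PRKDC, the DNA-dependent kinase, by −0.69 (0.00601) and −0.76 (0.0053). With IFN-γ, XRCC4 lost its call with treated wild-type library 1 left out (1.41, edgeR adjusted p = 0.0592). The RBBP8 and PRKDC differences with IFN-γ were not called without any 1 of the 4 treated libraries, with adjusted p from 0.0681 to 0.137, and PRKDC without IFN-γ was at −0.64 without untreated knock-in library 2 (0.052).

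Among 16 NAD genes, which supply the substrate of PARPs, 2 rose and 2 fell in wild-type cells, and 4 rose and 3 fell in knock-in cells. Under spike-in scaling 1 rose and 4 fell in wild-type and 1 rose and 5 fell in knock-in cells, and with the GC and length trend removed 1 rose and 0 fell and 2 rose and 1 fell by edgeR. IDO1, which opens the route from tryptophan to NAD, had 0 counts in all 4 untreated libraries and reached 9.42 and 10.4 CPM in treated wild-type and 12.8 and 13.1 CPM in treated knock-in cells (edgeR adjusted p = 5.74e-05 and 3.95e-05). NAMPT, the rate-limiting enzyme of NAD salvage, was at −0.75 (edgeR adjusted p = 0.00383) and −0.86 (0.0011). With the GC and length trend removed it was at 0.03 and 0.23, the latter called higher (edgeR adjusted p = 0.0471). SIRT1, an NAD-dependent deacetylase, was at −0.55 (edgeR adjusted p = 0.0193) and −0.87 (0.00121), and the NAD kinase NADK at 0.48 (0.0473) and 0.83 (0.00257). Neither was called with the trend removed. In wild-type cells SIRT1 was not called without untreated library 2 (−0.44, edgeR adjusted p = 0.0595) or either treated one (−0.62, 0.0719; −0.48, 0.135), and NADK not without any library but untreated wild-type library 1 (0.25 to 0.48, 0.061 to 0.163).

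Of 11 genes of IFN-γ signalling, 7 rose and 1 fell in wild-type cells, and 8 rose and 3 fell in knock-in cells. Under spike-in scaling 4 rose and 3 fell in wild-type cells and 6 rose and 3 fell in knock-in cells, and with the trend removed 8 rose and 1 fell in knock-in cells. IRF1 rose from 13.6 and 10.3 to 336.6 and 361.1 CPM in wild-type cells (4.86, edgeR adjusted p = 9.82e-07) and by 4.92 in knock-in cells (9.62e-07), close to the log2 fold change of PARP10. IRF9, a DNA-binding partner in interferon signalling, rose by 2.31 (edgeR adjusted p = 0.00014) and 2.04 (0.000151), and the transcription factor STAT3 by 2.03 (0.000147) and 2.27 (7.13e-05). SOCS1, the feedback inhibitor, rose in knock-in cells by 3.47 (edgeR adjusted p = 0.00109) and was at 1.43 in wild-type cells (0.0545). The wild-type value passed the test in 5 alternatives at a like size (1.40 to 1.44, edgeR or limma-voom adjusted p from 0.0348 to 0.0438), and the knock-in value rests on 0.446 and 0.164 CPM in untreated libraries.

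The genes next to PARP9, DTX3L and PARP14 did not rise with them. DTX3L and PARP14 start 116.4 kb apart on chromosome 3, and PARP15, a macrodomain PARP, lies between them. PARP15 was at 6.53 and 10.7 CPM without and 10.6 and 6.90 CPM with IFN-γ in wild-type cells (0.02 ± 0.29, edgeR adjusted p = 0.959) and was not called in knock-in cells (−0.32 ± 0.29, 0.399). Of 10 tested genes within 500 kb that were not among the 9, 0 were called higher and 6 lower in each response by edgeR. Their median was −0.84 in both. Over all tested genes, 17.1% were called higher and 20.8% lower in wild-type, and 26.4% and 25.8% in knock-in cells. On one side, KPNA1, an importin, was at −0.37 (edgeR adjusted p = 0.0428) and −0.61 (0.00284), WDR5B at −1.34 (0.00401) and −1.20 (0.00391), and FAM162A at −1.45 (0.000687) and −1.23 (0.000638). On the other, HSPBAP1 was at −0.85 (edgeR adjusted p = 0.0212) and −1.08 (0.00436), and DIRC2 (−0.23 and −0.44) and PDIA5 (0.17 and 0.39) were not called. With the GC and length trend removed, 5 of the 10 were called lower and 0 higher in wild-type cells, and 1 lower and 1 higher in knock-in cells. KPNA1 and HSPBAP1 were then not called in either line, and WDR5B not in knock-in cells (−0.45, edgeR adjusted p = 0.141). The wild-type call of KPNA1 was lost without any library but untreated wild-type library 1 (−0.39 to −0.26, edgeR adjusted p from 0.062 to 0.196), and that of HSPBAP1 without untreated library 2 (−0.63, edgeR adjusted p = 0.112) or treated library 1 (−0.66, 0.144).

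**Figure D4:**
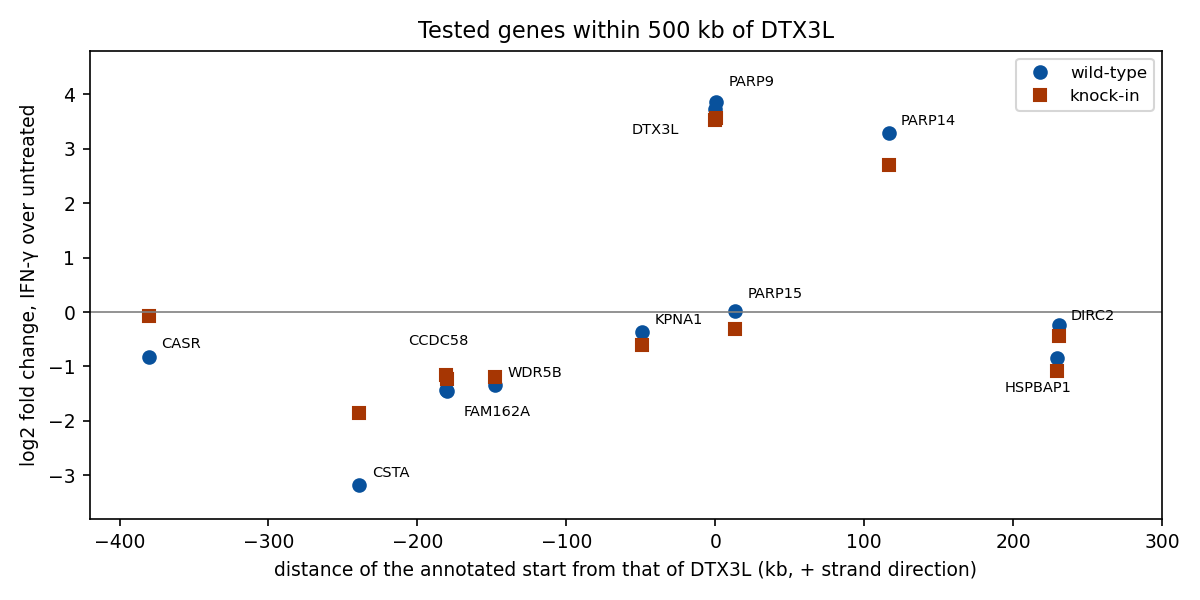
Log2 fold change with IFN-γ of the tested genes within 500 kb of DTX3L against the distance of their annotated starts, for wild-type (circles) and knock-in cells (squares). PARP9, DTX3L and PARP14 stand between 2.70 and 3.85, and the other genes are at or below 0.02.

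Around PARP10 on chromosome 8, 13 of 45 neighbours were called higher in wild-type and 33 in knock-in cells, and 0 lower by edgeR. The shares of all tested genes called higher were 17.1% and 26.4%. With the GC and length trend removed 4 neighbours were called higher and 2 lower in wild-type and 9 higher and 3 lower in knock-in cells. Of all 16519 genes, 1933 were then called higher and 2081 lower in wild-type and 2509 and 2562 in knock-in cells. Spike-in scaling called 233 of all genes higher and 6745 lower in wild-type and 616 and 5476 in knock-in cells. Of the neighbours, 0 were then higher and 3 lower in wild-type and 7 higher and 1 lower in knock-in cells by edgeR. In wild-type cells the count was 8 without untreated library 2, 25 without untreated library 1, and 5 and 6 without treated libraries 1 and 2. In knock-in cells it was 20 without untreated library 2. GRINA, which overlaps PARP10 on the other strand, rose by 1.48 (edgeR adjusted p = 0.00154) and 1.88 (0.00032), and EPPK1 by 1.81 (0.00134) and 1.89 (0.000605), though under spike-in scaling neither was called in wild-type cells (0.69 and 0.98). PLEC (0.81 and 1.07), OPLAH (0.65 and 1.06), EXOSC4 (0.22 and 0.54) and GPAA1 (0.60 and 1.22) were called in knock-in and not in wild-type cells, and the difference between the responses was called for none of them. PLEC, OPLAH and GPAA1 also passed in wild-type cells in some alternatives, among them limma-voom (limma adjusted p = 0.033, 0.044 and 0.0422), and under spike-in scaling none of the 4 was called in knock-in cells (0.53, 0.53, 0.01 and 0.68). With the trend removed PLEC and OPLAH were at −0.31 and −0.09 there. PLEC was not called without untreated knock-in library 2 (0.72, edgeR adjusted p = 0.102) or treated library 1 (1.01, 0.0541). EXOSC4 was not called without untreated knock-in library 2 (0.39, edgeR adjusted p = 0.211) or either treated one (0.60, 0.0839; 0.47, 0.172). The rise of PARP10 itself was larger than that of any of these named neighbours under each scaling.

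Around PARP12 on chromosome 7, 6 neighbours were tested. Of these, 1 was called higher and 0 lower in wild-type cells, and 1 higher and 3 lower in knock-in cells. The shares of all tested genes were 17.1% higher and 20.8% lower in wild-type, and 26.4% and 25.8% in knock-in cells. Under spike-in scaling 0 of the 6 were called higher and 3 lower in both lines by edgeR. HIPK2, a kinase, rose by 1.17 (edgeR adjusted p = 0.00175) and 1.38 (0.00045), and was not called under spike-in scaling (0.38 and 0.85). KDM7A (−0.40 and −0.78) and SLC37A3 (−0.28 and −0.60) were called lower in knock-in and not in wild-type cells, again with no called difference between the responses. In wild-type cells both were called lower under spike-in scaling (−1.19, edgeR adjusted p = 0.00098; −1.05, 0.000578) and without untreated library 1 (−0.57, 0.0176; −0.58, 0.0041). With the trend removed KDM7A was not called in knock-in cells (−0.22, edgeR adjusted p = 0.257). The call of SLC37A3 was lost without either treated knock-in library (−0.55, edgeR adjusted p = 0.0933; −0.65, 0.0548). TBXAS1 and RAB19, at 1.18 CPM or less in every library, were not called.

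The tested genes whose log2 CPM tracked each of the 9 most closely over the 8 libraries were found among 10868 genes. For PARP9 they were IFIT3, GBP1 and APOL6, for DTX3L APOL3, IRF1 and ERAP1, and for PARP14 ERAP2, GBP1 and APOL6 (Pearson r of 0.997 to 1.0). IRF1, APOL3 and IDO1 came first for PARP10, and BTN3A3, TAP1 and ZBTB40 for PARP12 (0.996 to 0.999). ZNF212, PHF8 and DNAJC14 followed PARP1 (0.996 to 0.997), and XRN2, ATAD2 and ZNF765 followed PARP4 (0.998). The closest genes for PARP2 were NDUFB10, VDAC1 and BLMH (0.925 to 0.953), and for PARP8 BRWD3, MET and KLRD1 (0.911 to 0.943). These values describe 8 libraries that share the treatment, and the 27 places are held by 23 different genes. Over 8 libraries Spearman's correlation has many ties, and 226 places were at or above the third highest rho. They held 4 of the 27, namely ERAP2 for PARP14, BTN3A3 and TAP1 for PARP12, and DNAJC14 for PARP1.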

How the data were processed

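The submitters' processing notes name Trimmomatic, kallisto and GRCh38. Tool versions, the transcript annotation and the use of strand in counting: not given in the sources used here. For 8 libraries, the authors deposited estimated counts per Ensembl gene ID (40295 IDs) and for 63 ERCC spike-ins, with 58.1% of nonzero values not whole (tolerance 1e-06). GENCODE release 29 named 35583 IDs. Members and lists were chosen with earlier results of these data known.

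Estimated counts were rounded, ERCC rows were left out of tests, and genes were kept by filterByExpr with a minimum count of 10. TMM factors ranged from 0.8604 to 1.134. Group was the only factor in edgeR 4.0.16 (R 4.3.3, quasi-likelihood F test on all 8 libraries, Benjamini-Hochberg adjustment over 16519 genes, threshold 0.05, coefficient of variation 20.4%). Standard errors were derived from the log2 fold change and the root of its F statistic. The fit was tested on simulated data. Named were the 9 genes, up to 4 called genes per list with the largest mean response, IRF1, the 3 nearest neighbours on each side and the 3 most correlated genes with a mean of at least 5 CPM; others are marked as named afterwards. One further gene of the IFN-γ list is not reported here and is in no list count.

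Alternatives were DESeq2's size factors, DESeq2 1.42.0, limma-voom (limma 3.58.1), spike-in scaling, removal of each library's GC and length trend (loess, span 0.3; GC known for 92.4% of genes), no filter, at least 50 counts in 2 libraries, glmTreat against 1.5-fold, a replicate block, a fit on the 2 groups concerned alone, each library left out, both knock-in libraries numbered 2 left out, the longest transcript as length, and Spearman's correlation. PARP4P2 (42.3 to 85.2 counts) and PARP1P1 (up to 3.05) are pseudogenes that could share reads with PARP4 and PARP1.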

Additional observations from a re-analysis of the deposited data

How the results depend on the processing

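Of 837 values for the 9 genes under the alternatives, 808 kept their side of the threshold, 17 lost and 10 gained a call, and 2 reversed. Reversed values changed sign and had a call before or after the change. These were under spike-in scaling PARP1 in wild-type cells (−0.10), and PARP8 in knock-in cells with the GC and length trend removed (0.97). Sign changes without any call are among those kept. With that trend removed, PARP2 went from −0.06 to 0.47 in wild-type and from −0.21 to 0.45 in knock-in cells. For the 51 other named genes, 1813 of 2072 values kept their side of the threshold, 206 lost and 41 gained a call, and 12 reversed in the same sense. Uncalled sign changes are again among those kept, such as PARP6 in wild-type cells (0.27, and −0.54 under spike-in scaling). Spike-in scaling reversed DTX4 (−0.17), LIG3 (−0.0013), NADK (−0.35) and XRCC1 (−0.13) in wild-type cells and PRKDC in wild-type (−0.38) and knock-in cells (−0.18). Removal of the trend reversed NAMPT (0.03 and 0.23), NADK in wild-type (−0.02), and PLEC (−0.31), OPLAH (−0.09) and XRCC1 (−0.05) in knock-in cells. Without both knock-in libraries numbered 2, 26 of the 61 values of these genes lost their call. The cause was not tested.

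The 1 gene of the 9 called lower in the wild-type response became 2 under spike-in scaling and 0 with DESeq2's size factors, no filter, glmTreat or only the groups compared, and 0 to 1 with a library left out. In knock-in cells it became 2 under spike-in scaling, 0 with glmTreat and 0 without both libraries numbered 2, and 1 to 2 with a library left out. Between untreated lines, 0 to 3 were called higher with a library left out, and between treated lines 2 were called lower with only the groups compared. With the longest transcript as length, the interferon-linked share was 6.41% in untreated wild-type, 41.0% in treated wild-type, 7.80% in untreated knock-in and 43.3% in treated knock-in cells. The PARP9 to DTX3L ratio of levels per kb was then 0.814, 0.874, 0.946 and 0.973 in that order, against 0.616, 0.662, 0.716 and 0.737 with merged exons.

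The wild-type response had 6256 called genes (2821 higher, 3435 lower; 233 and 6745 under spike-in scaling), 4014 with the trend removed, 1920 with glmTreat, and 3266 and 3754 without treated wild-type libraries 1 and 2. In knock-in cells 8613 were called (4356 higher, 4257 lower; 616 and 5476 under spike-in scaling), 5071 with the trend removed, 4693 with glmTreat and 3523 without both libraries numbered 2. The untreated line difference (1392 genes) ranged from 250 to 4815 and the treated one (481) from 118 to 2427, and the 0 genes of the response difference became 267 without a filter.

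Correlations of the deviations of same-numbered libraries ran from −0.0019 to 0.27. That of the knock-in groups was over 0.1, where plasma cell RNA also ran with the number, and the other 5 were not, so the numbers were not taken to pair the samples. The replicate block changed no call of the 9 genes (PARP9 3.85 in wild-type and 3.57 in knock-in cells), but called 20 neighbours of PARP10 higher in wild-type cells, against 13.

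Depth limits PARP10 most, at 14 to 20 counts in untreated libraries. With 2 libraries per group, p-values measure the spread between these samples only.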
